A study of Mus musculus with 112 samples.

Results

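Spindle carcinomas of mouse skin were compared with the papillomas of the same animals. The members were the primary carcinomas whose histology label reads spindle and the papillomas of every mouse that had both: 11 carcinomas and 20 papillomas from 9 of the 15 mice, 31 of 112 arrays in all. The series holds 12 spindle carcinomas and 27 papillomas altogether. Each mouse gave 1 to 3 papillomas; 7 mice gave 1 spindle carcinoma, and mice 1508 and 1664 gave 2 each. The samples come from chemically induced skin tumours of male mice of the FVBBX backcross, in which hybrids of Mus spretus and the FVB strain were crossed to FVB. Every animal, whatever its group, was given a single DMBA treatment (a mutagen) when 8 weeks old, followed by TPA applications that promote tumour growth. Tumours over 1 cm were surgically removed, and all mice had metastatic disease at sacrifice. RNA was hybridised to Affymetrix arrays with probes along whole transcripts, and all levels are log2 intensities, so a difference of 1 is a 2-fold difference. The labels class 6 mice as wild type (WT: 1383, 1508, 1815, 1949, 1984 and 2022) and 3 as HrasKO (1407, 1509 and 1664). Mouse 1664 was labelled batch 2 and the others batch 1, and the labels do not say what a batch is. Of the carcinomas, 6 are titled RegCA, a term that the sources used here do not define. The labels give neither whether HrasKO is a deletion in all cells nor the share of tumour cells in a sample.

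Papillomas are benign outgrowths of squamous epithelium whose cells stay joined by desmosomes and E-cadherin and still build a cornified layer. Spindle carcinomas are the poorly differentiated end of skin tumour progression, made of elongated cells that are held to arise from keratinocytes by an epithelial-mesenchymal transition (EMT). In EMT, transcription factors of the Snail, Zeb and Twist families repress junction genes, while epithelial factors such as the Grainyhead-like and Ovol proteins and the microRNAs of the miR-200 family hold the epithelial state.

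The arrays behind the comparison were not wholly even in scale. Array medians lay between 5.89 and 6.36, and pairs of arrays correlated between 0.874 and 0.992 over 28204 probe sets. At most 0.301% of probe sets had identical values on a pair of arrays. Precision is limited by the number of mice. The arrays of each mouse and tissue were averaged, and the 9 pairs of means were compared with limma with mouse as a block. A gene was called when its Benjamini-Hochberg adjusted p over all 18772 genes was under 0.05, and below, rose and fell are used of called genes alone.

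The histology labels were first set against the mean of 11 keratinocyte markers, structural genes of keratin filaments and junctions. It was 6.76 in the lowest papilloma array, 11.57 in the median one and 11.79 in the highest, against 6.38, 7.48 and 11.28 in spindle carcinomas. Dorsal skins of the same mice ranged from 10.79 to 11.56. Most arrays thus matched their labels, and 6 did not. These 6 correlated better with the mean profile of another tissue than with that of their own label, and they are the first papilloma of 1508, both papillomas of 1815 and the second papilloma of 1984 (nearest to spindle carcinoma), the second papilloma of 1407 (nearest to skin) and the spindle carcinoma of 1949 (nearest to papilloma). The other 15 papillomas had a marker mean of 11.51 to 11.79 and the other 10 spindle carcinomas of 6.38 to 9.11, with no overlap. The papillomas nearest to spindle carcinoma were not alike. In the second papilloma of 1984 Hmga2 was at 5.69 and Krt8 at 6.8, below their skin means of 6.49 and 7.34. In the papillomas of 1815 Hmga2 was at 11.11 and 10.95 and Krt8 at 12.53 and 12.51. Results are given with all arrays. Many group counts, and named genes whose calls change, are also given without the 6 arrays, which leaves 7 mice and loses 1815 and 1949. A group count given only with all arrays can still differ without the 6 arrays. Those arrays were picked by the same genes that are tested, so larger changes without them describe the remaining arrays and support nothing.

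**Figure D1:**
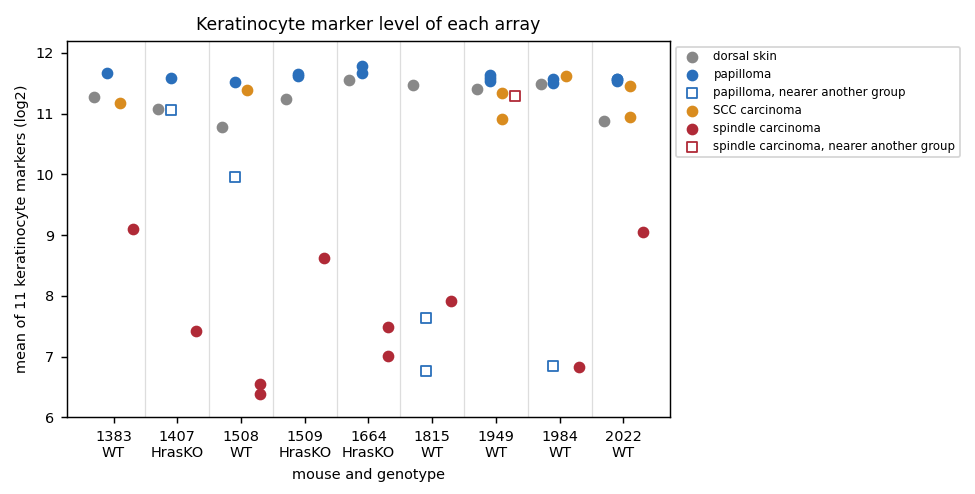
Mean log2 level of 11 keratinocyte markers on each array, by mouse (x axis, with genotype) and tissue (colour); open squares are the arrays nearer to another tissue than to their label. Filled papilloma points lie between 11.51 and 11.79 and filled spindle carcinoma points between 6.38 and 9.11, while both papillomas of mouse 1815 lie among the carcinomas and the spindle carcinoma of mouse 1949 among the papillomas.

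Across all genes, 4470 were called, of which 2369 were higher in spindle carcinoma (12.6% of genes tested) and 2101 lower (11.2%). The falls were larger: 976 genes fell more than 2-fold and 495 rose more than 2-fold. Of the called genes, 593 were lower and 324 were higher in all 9 mice. With every array centred on its own median, 3270 genes were higher and 1536 lower, a share of higher calls of 68.0% against 53.0%, so the balance of rises and falls depends on the scaling. Without the 6 arrays, 24.2% of genes were higher and 17.9% lower, 4358 of the 4470 genes were called again and 0 were called the other way. The 6 WT mice alone gave 0 calls by limma (3402 genes at an unadjusted p under 0.05), and the 5 mice with a carcinoma not titled RegCA gave 0 (5423 unadjusted), so no gene below was called in either subset. Leaving out 1 mouse at a time gave 2105 (without 1383) to 5785 (without 1815) calls.

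Levels below are given as the lowest, the median and the highest of 9 mouse means. For 241 of the 244 genes named here these means overlapped between the tissues. For 159 of them the overlap ended when 1815, whose papillomas read like its carcinoma, and 1949, whose carcinoma read like its papillomas, were left out. The genes were in part chosen by their values, so these counts describe the text and not the array. Single values given for skin are means over the skins of the same mice, not medians. The skin of mouse 2022 was the highest for Hmga2 (9.72) and Pitx1 (8.0).

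Camk1g led the rises that held in every mouse. This gene, a calcium-dependent kinase, was at 3.85, 4.05 and 5.18 in papillomas and 4.42, 7.23 and 10.08 in spindle carcinomas. It rose by 3.36 (SE 0.641, adjusted p = 0.00952), higher in 9 of 9 mice. The carcinomas were spread widely, and the carcinoma means of 1949 (4.42) and 2022 (4.76) lay within the range of the papillomas. In 1949 the papilloma mean was 4.38, so the tissues of that mouse were nearly level. Slc9a2, a sodium-proton exchanger, rose by 2.65 (SE 0.419, adjusted p = 0.00752), from a median of 4.63 to 7.56, higher in 9 of 9 mice. Cx3cl1, a membrane-bound chemokine, rose by 1.81 (SE 0.244, adjusted p = 0.00565). Hmga2, a chromatin protein of embryonic tissue, was at 8.02, 9.4 and 11.03 in papillomas and 10.03, 11.101 and 11.54 in spindle carcinomas, against 6.49 in skin, and rose by 1.77 (SE 0.343, adjusted p = 0.00974). The overlap came from the papillomas of 1815, the highest, and the carcinoma of 1949, the lowest. Other genes of this group were Unc13c (2.24), the semaphorin Sema7a (1.78), the imprinted gene Mest (1.75), the metalloprotease Adamts6 (1.72), the sphingomyelin synthase Sgms2 (1.72), Gchfr (1.71) and the keratin Krt18. All were higher in 9 of 9 mice, as the choice of genes required.

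Among the largest falls were those of proteins of the cornified cell envelope, the cross-linked shell of dead keratinocytes. Lce1f, a late cornified envelope protein, was at 5.04, 10.36 and 11.001 in papillomas and 2.94, 4.12 and 6.51 in spindle carcinomas, and it fell by 5.33 (SE 0.602, adjusted p = 0.00565), lower in 9 of 9 mice. Lor (loricrin), the main protein of that envelope, was at 5.02, 11.81 and 12.32 in papillomas and 4.86, 5.61 and 9.32 in spindle carcinomas and fell by 4.31 (SE 0.637, adjusted p = 0.00653). In the median mouse both thus went from far above the medians of the arrays to below them. Lce1c (-4.46), Lce6a (-4.21), repetin (Rptn, -4.88), the protease inhibitors Serpinb3a (-4.21) and Wfdc5 (-4.2), Lypd5 (-4.09) and Aadacl2 (-4.21) fell too, again in 9 of 9 mice by the rule of choice. Genes that fell differed in their level in normal skin. Bpifa5 was at 3.59 in skin, 9.39 in the median papilloma and 3.49 in the median spindle carcinoma, and Akr1d1, a steroid reductase, at 5.35, 8.45 and 4.11. Loricrin had a mean of 11.62 in skin, against a mean of 10.86 and a median of 11.81 in papillomas.

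**Figure D2:**
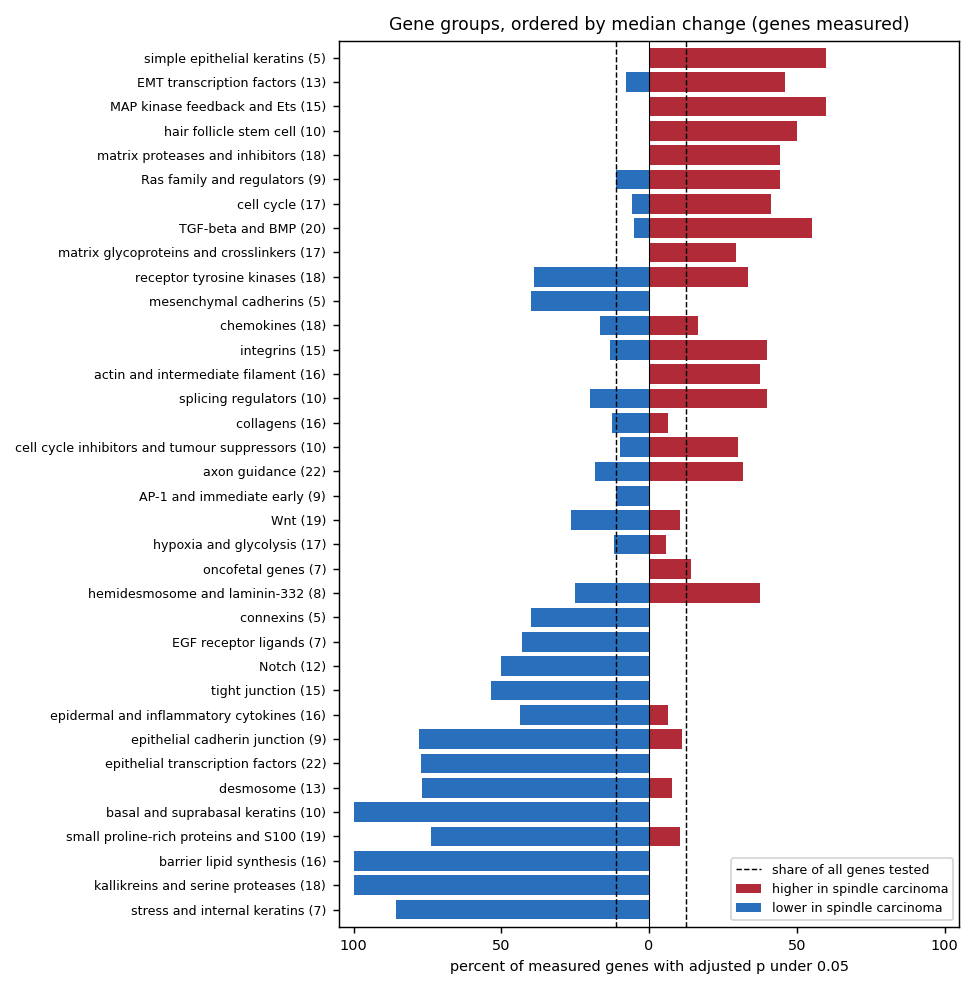
Percent of the measured genes of 36 gene groups that were called higher (red, to the right) or lower (blue, to the left) in spindle carcinoma, ordered by the median change of the group, with the number of genes measured in brackets; dashed lines are the shares over all genes, 12.6% and 11.2%. Epidermal keratin, kallikrein, barrier lipid and desmosome groups lie at the lower end with nearly all called genes lower, and simple epithelial keratins have the highest median.

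Desmosomes, the spot junctions that anchor keratin filaments between cells, had falling transcripts for most of their parts. Of 13 genes, 10 fell and 1 rose, with a median change of -2.17 against 0.03 over all genes. Dsg3, the desmosomal cadherin of the basal layer, was at 3.73, 11.59 and 11.86 in papillomas and 3.64, 4.39 and 11.79 in spindle carcinomas. It fell by 4.33 (SE 0.882, adjusted p = 0.0112), lower in 7 of 9 mice; the exceptions were 1815, where both tissues were low, and 1949, where both were high. Dsg1b (-4.47), a desmoglein of the upper layers, and the desmocollin Dsc2 (-3.61) fell as well. The plaque protein desmoplakin (Dsp) fell by 3.53 (SE 0.749, adjusted p = 0.0126). Pkp2, a plakophilin of heart and simple epithelia, was the 1 member that rose, by 1.61 (SE 0.232, adjusted p = 0.00643).

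Adherens and tight junction genes fell as well. Of 9 epithelial cadherin junction genes, 7 fell and 1 rose (median -1.57). E-cadherin (Cdh1) was at 7.72, 11.02 and 11.41 in papillomas and 6.18, 8.25 and 11.08 in spindle carcinomas and fell by 2.21 (SE 0.51, adjusted p = 0.0162), P-cadherin (Cdh3) fell by 2.55 (SE 0.616, adjusted p = 0.0188), Nectin4 by 2.65 (SE 0.49, adjusted p = 0.00903) and the adhesion molecule Epcam by 2.4 (SE 0.5, adjusted p = 0.0119). The members that moved little are the catenins that mesenchymal cadherins also bind: Ctnna1 rose by 0.19 (SE 0.0617, adjusted p = 0.0458), a call that centring ended, and beta-catenin (Ctnnb1) had a change of 0.09 (SE 0.052, adjusted p = 0.258). Of 15 tight junction genes, 8 fell and 0 rose (median -1.05, 0 higher and 13 lower without the 6 arrays), with the claudins Cldn4 at -2.84 and Cldn8 at -2.69 and occludin (Ocln) at -2.59. Of 5 connexins, which form gap junctions, 2 fell and 3 were not called (1 higher and 3 lower without the 6 arrays). Gjb2 fell by 4.23 (SE 1.11, adjusted p = 0.0241) and Gjb6 by 3.81 (SE 0.603, adjusted p = 0.00752). There was no called gain of a mesenchymal cadherin: N-cadherin (Cdh2) had a change of 1.09 (SE 0.389, adjusted p = 0.067), Cdh6 fell by 0.88 (SE 0.163, adjusted p = 0.00903) and Cdh4 fell by 0.65 (SE 0.156, adjusted p = 0.0189). The change of Cdh2 was 1.83 (adjusted p = 0.00174) without the 6 arrays, where it was called.

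Hemidesmosomes, which bind basal cells to the basement membrane, split. Of 8 genes, 2 fell and 3 rose. The transmembrane collagen Col17a1 was at 5.18, 10.298 and 10.49 in papillomas and 5.08, 5.73 and 10.09 in spindle carcinomas and fell by 3.03 (SE 0.574, adjusted p = 0.00936), and the laminin chain Lama3 fell by 1.92 (SE 0.406, adjusted p = 0.0125). The cytoplasmic linkers Dst and Plec rose by 1.01 (SE 0.236, adjusted p = 0.0167) and 0.59 (SE 0.129, adjusted p = 0.014), and the tetraspanin Cd151 rose by 0.42 (SE 0.074, adjusted p = 0.00847), higher in 9 of 9 mice. Dst and Plec are also made in muscle and other tissues. The integrin pair of this junction was not called, with Itga6 at -0.17 (adjusted p = 0.394) and Itgb4 at -0.45 (adjusted p = 0.344).

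**Figure D3:**
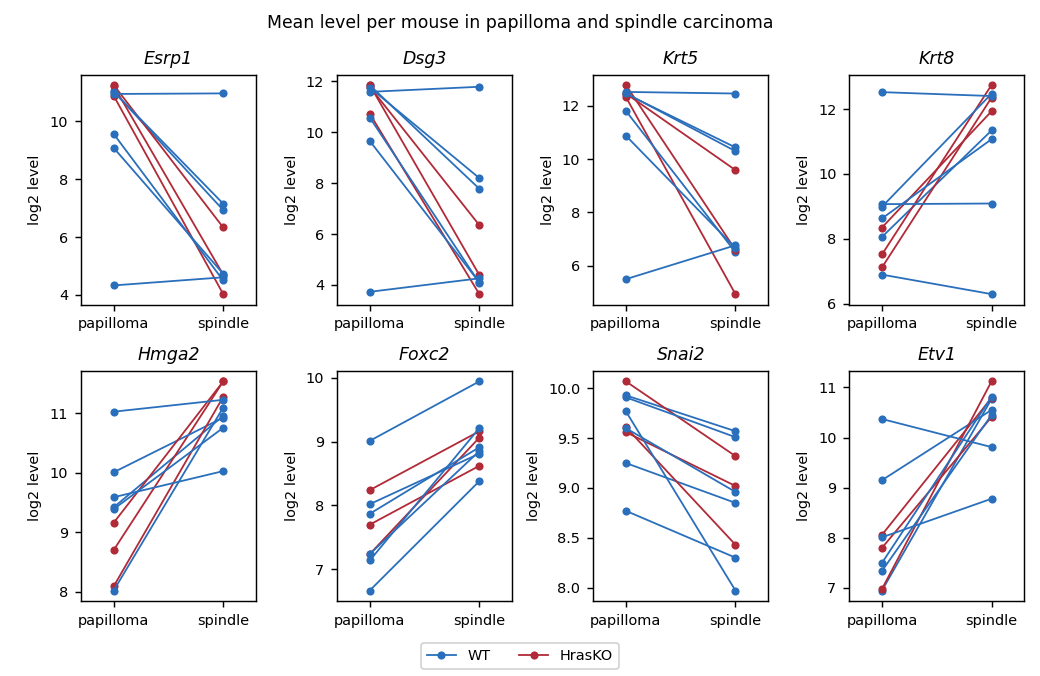
Mean log2 level per mouse in papillomas (left of each panel) and spindle carcinomas (right) of the same mouse, joined by lines, for 8 genes; blue lines are the 6 WT mice and red lines the 3 HrasKO mice. Esrp1, Dsg3 and Krt5 fall steeply in 7 mice, while they are low in both tissues of 1815 and high in both tissues of 1949; Foxc2 rises and Snai2 falls in every mouse.

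Keratins, the intermediate filaments of epithelia, changed by class. All 10 measured keratins of the basal and upper epidermal layers fell (median -2.53). The basal keratin Krt5 was at 5.5, 12.45 and 12.78 in papillomas and 4.94, 6.77 and 12.46 in spindle carcinomas and fell by 3.22 (SE 0.847, adjusted p = 0.0244), and its partner Krt14 fell by 2.63 (SE 0.745, adjusted p = 0.031). The suprabasal keratin Krt10 fell by 3.4 (SE 0.545, adjusted p = 0.00775), lower in 9 of 9 mice, and Krt1 fell by 4.51 (SE 0.924, adjusted p = 0.0113). Without 1815 and 1949 the means of the tissues no longer overlapped for Krt5, while for Krt14 they still did. Of 7 keratins of stressed skin and internal epithelia, 6 fell (median -3.75). Krt13, a keratin of internal stratified epithelia, was at 4.84 in skin and at 4.46, 11.15 and 11.88 in papillomas and 3.74, 4.58 and 11.65 in spindle carcinomas, and it fell by 4.43 (SE 0.876, adjusted p = 0.0102). Krt4 fell by 4.18 (SE 1.04, adjusted p = 0.0204) and Krt16 by 4.36 (SE 0.899, adjusted p = 0.0115), whereas Krt6b, at -3.47, missed the threshold (adjusted p = 0.0514) and was -5.19 (adjusted p = 0.00316) without the 6 arrays.

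The simple epithelial keratins went the other way. Krt8, the keratin of one-layered epithelia, was at 6.9, 8.35 and 12.52 in papillomas and 6.3, 11.93 and 12.74 in spindle carcinomas and rose by 2.5 (SE 0.671, adjusted p = 0.026), higher in 7 of 9 mice. Its partner Krt18 was at 6.34, 8.12 and 9.54 in papillomas and 8.37, 9.57 and 11.802 in spindle carcinomas and rose by 1.81 (SE 0.468, adjusted p = 0.0231), higher in 9 of 9 mice. Krt20, a keratin of the gut lining, rose by 1.16 (SE 0.347, adjusted p = 0.038). The Krt8 levels were not even: the carcinoma of mouse 1984 was lowest, below its papillomas, and the papillomas of 1815 were as high as most carcinomas. Krt7 (-0.54, adjusted p = 0.609) and Krt19 (0.09, adjusted p = 0.942) were not called. Krt19 was at 11.37 in the carcinoma of 1949 and at 3.68 to 5.95 on the 10 other carcinoma arrays, so the direction of its change turns to -0.8 (adjusted p = 0.0341) without the 6 arrays, where Krt7 was -1.4 (adjusted p = 0.0456) and both were called lower.

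Krt8 and Krt18 encode partners that polymerise with each other, and both lie on chromosome 15. Their promoters are shown because these keratins rose while the other called keratins of these groups, Krt20 apart, fell, from RefSeq (GRCm38.p6), 250 bases before to 50 after the start site, with the E-box CACCTG, the motif that Snail and Zeb proteins bind, in capitals on either strand. The Krt8 window is chr15:102004293-102004592, minus strand and the Krt18 window chr15:102027966-102028265, plus strand.
Krt8: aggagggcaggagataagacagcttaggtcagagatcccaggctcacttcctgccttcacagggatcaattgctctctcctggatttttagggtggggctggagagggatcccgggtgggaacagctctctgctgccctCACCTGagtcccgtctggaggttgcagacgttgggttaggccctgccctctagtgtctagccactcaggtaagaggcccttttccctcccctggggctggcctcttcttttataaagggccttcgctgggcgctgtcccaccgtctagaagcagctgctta
Krt18: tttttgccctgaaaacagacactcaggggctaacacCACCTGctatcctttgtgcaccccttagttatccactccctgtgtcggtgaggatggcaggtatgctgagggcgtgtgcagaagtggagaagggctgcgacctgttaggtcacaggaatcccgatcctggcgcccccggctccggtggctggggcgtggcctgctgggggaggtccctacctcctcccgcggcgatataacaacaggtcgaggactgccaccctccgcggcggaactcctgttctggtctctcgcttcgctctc
Each holds 1 E-box and none of the AP-1 motif TGANTCA or the Grainyhead-like motif AACCNGTT; the Hmga2 promoter holds none of the 3. The letters CACCTG (or CAGGTG, its other strand) occur in 5413 of all 27025 promoters in the table and in 19.1% of those of the genes tested. The share was 14.3% among 1883 promoters of genes called higher and 27.2% among 1621 of genes called lower. The share with TGANTCA was 4.04% and 8.64% in the same sets and 6.78% over the genes tested, and that with AACCNGTT 1.86% and 2.84%, against 1.95%. Mean GC content was 62.0% and 59.8% in the sets called higher and lower and 57.0% over the genes tested. These shares count letters and say nothing of binding.

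Transcription factors that hold the epithelial state fell together. Of 22 measured, 17 fell and 0 rose, with a median change of -1.88, and without the 6 arrays 21 were lower. The Grainyhead-like factors, which keep junction genes on, were 3 of these: Grhl1 fell by 3.4 (SE 0.577, adjusted p = 0.00833), Grhl2 fell by 2.72 (SE 0.538, adjusted p = 0.0102) and Grhl3 fell by 3.54 (SE 0.655, adjusted p = 0.00903). Ovol1, a repressor of Zeb1, was at 4.78, 9.62 and 10.51 in papillomas and 3.9, 4.6 and 9.67 in spindle carcinomas and fell by 3.91 (SE 0.666, adjusted p = 0.00833). Trp63, the p63 factor of stratified epithelia, was at 5.07, 10.31 and 10.64 in papillomas and 5.12, 5.99 and 10.48 in spindle carcinomas and fell by 2.99 (SE 0.632, adjusted p = 0.0125). In 1815 the papillomas, and in 1949 the carcinoma, lay at the level of the other tissue for both. Other members included the Ets factor Ehf (-3.9), Zfp750 (-3.95), a p63 target needed for terminal differentiation, Elf5 (-3.3), Klf4 (-1.4), Klf5 (-1.38) and Gata3 (-1.85). The POU factors Pou2f3 and Pou3f1, of the upper epidermis, fell by 2.23 (SE 0.332, adjusted p = 0.00653) and 1.33 (SE 0.214, adjusted p = 0.00775). Pou3f1 is one of the genes whose tissues did not overlap at all, at 7.33, 8.75 and 9.13 in papillomas and 6.99, 7.14 and 7.31 in spindle carcinomas.

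The other 5 factors of the epithelial group were not called with all arrays. Tfap2a, a factor of surface ectoderm, was at 8.51, 10.004 and 10.32 in papillomas and 9.56, 9.78 and 10.14 in spindle carcinomas, with a change of -0.1 (SE 0.182, adjusted p = 0.753). Pitx1, a homeobox factor of limb and oral ectoderm, was at 5.21 in skin, 10.59 in the median papilloma and 9.82 in the median spindle carcinoma, with a change of -0.35 (SE 0.452, adjusted p = 0.62). Both tumour tissues thus lay far above skin, and without the 6 arrays the change was -1.44 (adjusted p = 0.000286). Sox2, a stem cell factor, was at 4.24, 7.3 and 8.51 in papillomas and 4.27, 7.84 and 9.7 in spindle carcinomas with a change of -0.21 (SE 0.553, adjusted p = 0.824), lower in 4 of 9 mice. Its level ranged over more than 4 log2 units in both tissues and showed no common direction. Elf3 (-1.91, adjusted p = 0.0686) and Tfap2b (-0.78, adjusted p = 0.304) were not called. Without the 6 arrays Elf3 was -3.36 (adjusted p = 2.15e-05), Tfap2b -1.33 (adjusted p = 0.0287) and Tfap2a -0.48 (adjusted p = 0.00341), all called lower, and Sox2 alone of the 22 was not called.

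The splicing factors Esrp1 and Esrp2, which set the epithelial forms of several receptor and adhesion transcripts, fell with them. Esrp1 was at 4.33, 10.94 and 11.25 in papillomas and 4.03, 4.73 and 10.97 in spindle carcinomas and fell by 3.93 (SE 0.756, adjusted p = 0.00966), and Esrp2 fell by 3.27 (SE 0.657, adjusted p = 0.0107). Both were lower in 7 of 9 mice; in 1815 both tissues were low and in 1949 both were high. Of the other splicing regulators, Rbfox2, Qk, Celf2 and Mbnl2, linked to mesenchymal or muscle splicing, rose by 0.48, 0.39, 0.96 and 0.38. These were small changes beside those of the Esrp genes, and Mbnl1, Mbnl3, Ptbp1 and Rbm47 were not called; without the 6 arrays Mbnl1 was higher (0.36) and Mbnl3 (-0.36) and Rbm47 (-0.6) lower.

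Of 13 EMT transcription factors 6 rose and 1 fell, with a median change of 1.03 (10 higher and 2 lower without the 6 arrays). Snai1, the Snail factor that represses E-cadherin, was at 6.17, 7.63 and 9.35 in papillomas and 7.81, 9.5 and 9.86 in spindle carcinomas and rose by 1.75 (SE 0.349, adjusted p = 0.0104), higher in 8 of 9 mice. Zeb1 was at 7.62, 8.59 and 10.46 in papillomas and 8.1, 10.44 and 10.72 in spindle carcinomas and rose by 1.38 (SE 0.344, adjusted p = 0.0206). The homeobox factors Prrx1 and Prrx2 rose by 1.35 and 1.44, and Tcf4 by 0.92. Foxc2, a forkhead factor of mesenchyme, was at 6.68, 7.7 and 9.01 in papillomas and 8.38, 8.91 and 9.94 in spindle carcinomas and rose by 1.31 (SE 0.151, adjusted p = 0.00565), higher in 9 of 9 mice. It was higher in 1815 and 1949 too, where Esrp1 and Dsg3 were nearly level, and its tissues overlapped through the papillomas of 1815. Zeb2 (0.85, adjusted p = 0.106), Twist1 (0.85, adjusted p = 0.0578) and Twist2 (1.03, adjusted p = 0.0997) missed the threshold with all arrays and were called without the 6 arrays, at 1.64, 1.42 and 1.55. Snai2 (Slug), the relative of Snai1, was at 8.77, 9.61 and 10.07 in papillomas and 7.98, 8.96 and 9.57 in spindle carcinomas and fell by 0.73 (SE 0.148, adjusted p = 0.0112), lower in 9 of 9 mice. Another Snail family gene was not called with all arrays (-0.96, adjusted p = 0.0751). It was the other gene called lower without the 6 arrays, at -1.88 (adjusted p = 5.19e-05). Gsc had a change of -0.12 (adjusted p = 0.178). Dermal fibroblasts and other stromal cells express most of these factors too, and in these bulk samples fewer cells of a type and less RNA per cell cannot be told apart.

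**Figure D4:**
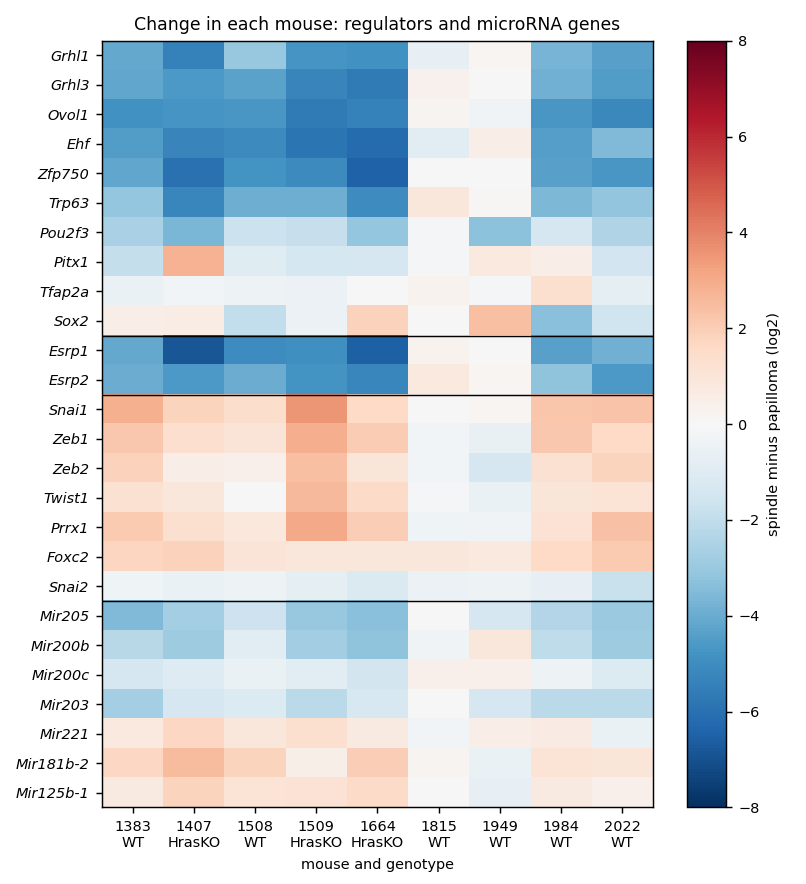
Spindle minus papilloma (log2, colour) in each of 9 mice for epithelial transcription factors, the Esrp splicing factors, EMT transcription factors and microRNA genes, from top to bottom in blocks. The columns of 1815 and 1949 are pale in the upper blocks, Foxc2 is red and Snai2 blue in all columns, and Pitx1 and Sox2 change sign between mice.

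MicroRNA genes were looked at because microRNAs of the miR-200 family and Zeb1 and Zeb2 repress each other, and this group was chosen after its values had been seen. A probe set named for a microRNA gene reads transcripts from that gene, such as the precursor, and not the mature microRNA. Of 303 such genes 14 were higher and 11 lower, a share of calls below that of all genes, and 41 had a mean level of at least 6 in either tissue. The mature strands of those the text turns on are given from RefSeq (GRCm38.p6), with the seed (bases 2 to 8), which pairs with targets, in capitals.
miR-200b-3p, chr4:156055685-156055706, minus strand: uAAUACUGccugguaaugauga
miR-200c-3p, chr6:124718324-124718346, minus strand: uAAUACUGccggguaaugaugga
miR-200a-3p, chr4:156054911-156054932, minus strand: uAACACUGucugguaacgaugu
miR-141-3p, chr6:124717917-124717938, minus strand: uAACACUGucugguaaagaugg
miR-205-5p, chr1:193507503-193507524, minus strand: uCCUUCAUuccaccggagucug
miR-203-3p, chr12:112130927-112130948, plus strand: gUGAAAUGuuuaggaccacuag
miR-221-3p, chrX:19146307-19146329, minus strand: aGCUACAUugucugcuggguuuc
miR-222-3p, chrX:19146901-19146923, minus strand: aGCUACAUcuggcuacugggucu
miR-200b and miR-200c share 1 seed, miR-200a and miR-141 share another, and miR-221 and miR-222 have 1 seed in common.

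The epithelial microRNA genes were lower. Mir205, whose product is abundant in stratified epithelium and targets Zeb1 and Zeb2, was at 3.74, 7.12 and 7.93 in papillomas and 3.78, 4.15 and 6.04 in spindle carcinomas and fell by 2.32 (SE 0.349, adjusted p = 0.00661), lower in 8 of 9 mice. Mir200b was at 4.75, 7.2 and 7.81 in papillomas and 4.4, 4.6 and 8.13 in spindle carcinomas and fell by 1.79 (SE 0.423, adjusted p = 0.0175), and Mir200c, of the same seed, fell by 0.66 (SE 0.215, adjusted p = 0.0491). The genes of the other seed were not called with all arrays, Mir200a at -0.71 (adjusted p = 0.0902) and Mir141 at -0.37 (adjusted p = 0.148). Without the 6 arrays, which were picked by the same genes, both were lower, at -1.22 (adjusted p = 8.18e-05) and -0.73 (adjusted p = 0.000602). Whether the genes of the 2 seeds differ in their change was not tested. Mir203, a microRNA of differentiating keratinocytes, fell by 1.59 (SE 0.244, adjusted p = 0.0068), lower in 9 of 9 mice. For Mir200b, lower in 8 of 9 mice, the exception was 1949. For Mir200c, lower in 7 of 9 mice, the exceptions were again 1949 and 1815. The carcinoma of 1949 held the highest level of any carcinoma for both genes. In 1815 Mir200b was low in both tissues, at 4.76 and 4.75 in papillomas and 4.48 in the carcinoma. On the other side, Mir221 rose by 0.65 (SE 0.206, adjusted p = 0.0465) and Mir222, which lies next to it on chromosome X, by 0.38 (SE 0.119, adjusted p = 0.0424). Mir181b-2 rose by 1.12 (SE 0.289, adjusted p = 0.0228), and Mir125b-1 and Mir100 by 0.76 and 0.41. These last were low signals, with highest mouse means of 7.13, 5.44 and 4.12. Signals were low too for Mir200a, Mir200c, Mir203, Mir141 and Mir222. Their mean levels were 5.72, 5.35, 4.97, 4.53 and 4.61 in papillomas. In spindle carcinomas they were 5.015, 4.69, 3.38, 4.16 and 4.99, and all lay below the lowest array median of 5.89.

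Enzymes and precursors of the skin barrier fell without exception in the first pair of groups. All 16 barrier lipid genes (median -3.53) and all 18 kallikreins and serine proteases (median -3.54) fell. Tgm3, the transglutaminase that cross-links the envelope, was at 5.18, 12.02 and 12.58 in papillomas and 5.02, 5.46 and 10.47 in spindle carcinomas and fell by 4.7 (SE 0.703, adjusted p = 0.0066). The lipid transporter Abca12 (-4.41) and the lipoxygenase Alox12b (-4.35) fell as well. Klk14, a kallikrein that activates other proteases during shedding, was at 5.99 in skin and at 5.21, 12.22 and 12.83 in papillomas and 4.67, 5.01 and 12.77 in spindle carcinomas, and it fell by 5.0 (SE 0.945, adjusted p = 0.00929). Most spindle carcinomas thus read near the level of skin, far below papillomas. Klk9 (-4.43) and Klk13 (-4.2) were its neighbours in size. Of 19 small proline-rich and S100 proteins, 14 fell and 2 rose. Sprr3 (-4.86), Sprr2e (-4.31) and Sprr2b (-4.05) led the falls, and the members that rose were S100a4, a protein of motile and mesenchymal cells, by 1.49 (SE 0.469, adjusted p = 0.0449) and S100a6 by 0.42 (SE 0.119, adjusted p = 0.0308).

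Cytokines made by keratinocytes fell in 7 of 16 cases and 1 rose (2 higher and 9 lower without the 6 arrays). The IL-36 family genes Il1f5 (-4.71), Il1f6 (-4.58), Il1f8 (-3.89) and Il1f9 (-4.11) fell most. Il1f5 was at 4.39, 11.08 and 11.39 in papillomas and 4.01, 5.002 and 6.82 in spindle carcinomas and was lower in 8 of 9 mice. The macrophage growth factor Csf1 was the member that rose, by 1.16 (SE 0.337, adjusted p = 0.0341). Of 18 chemokines, 3 rose and 3 fell, shares near those of all genes (12.6% and 11.2%), and without the 6 arrays the counts were 9 higher and 4 lower. The neutrophil attractant Cxcl2 fell by 2.25 (SE 0.725, adjusted p = 0.0486) and Ccl20, the attractant of Langerhans cell precursors, by 1.38 (SE 0.263, adjusted p = 0.00936), lower in 9 of 9 mice.

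The matrix and its enzymes showed rises with few falls. Of 18 matrix proteases and inhibitors, 8 rose and 0 fell (median 0.60). The inhibitors Timp1 and Timp3 rose by 1.62 (SE 0.382, adjusted p = 0.0172) and 1.65 (SE 0.418, adjusted p = 0.022), and the membrane metalloproteases Mmp14 and Mmp16 rose by 0.64 and 1.53. The secreted collagenase Mmp13 (-0.21, adjusted p = 0.761) and Mmp9 (-0.18, adjusted p = 0.86) were not called. Of 17 matrix glycoproteins and crosslinkers, 5 rose (median 0.44, 8 higher and 2 lower without the 6 arrays). Matrix Gla protein (Mgp), an inhibitor of calcification, was at 5.77, 7.59 and 11.36 in papillomas and 7.81, 10.85 and 11.55 in spindle carcinomas and rose by 2.85 (SE 0.577, adjusted p = 0.011), higher in 8 of 9 mice. Versican (Vcan) rose by 1.41 (SE 0.356, adjusted p = 0.0216), fibronectin (Fn1) by 1.02 (SE 0.229, adjusted p = 0.0151) and the crosslinker Loxl1 by 1.47 (SE 0.396, adjusted p = 0.0262). Of 16 collagens 1 rose and 2 fell (median 0.07), near or below the shares over all genes (12.6% and 11.2%). Without the 6 arrays 3 were higher and 2 lower, below the shares over all genes there (24.2% and 17.9%). Col6a3 rose by 0.77, Col11a1 fell by 0.89 and Col12a1 by 0.78, and Col1a1, the main collagen of dermis, had a change of -0.37 (SE 0.176, adjusted p = 0.16).

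Integrins and the cytoskeleton moved in part. Of 15 integrins 6 rose and 2 fell, and of 16 actin and filament genes 6 rose and 0 fell (8 higher and 3 lower without the 6 arrays). Itga5, the fibronectin receptor chain, was at 8.66, 9.41 and 10.704 in papillomas and 9.47, 10.77 and 11.48 in spindle carcinomas and rose by 1.16 (SE 0.179, adjusted p = 0.00701), higher in 9 of 9 mice, alongside its partner Itgb1 at 0.45. Itgb6, an epithelial integrin that activates TGF-beta, fell by 1.99 (SE 0.369, adjusted p = 0.00903), and the collagen receptor Itga11 fell by 1.73 (SE 0.3, adjusted p = 0.00833). Vimentin (Vim), the filament of mesenchymal cells, was at 11.51, 12.09 and 12.82 in papillomas and 11.74, 12.79 and 12.86 in spindle carcinomas and rose by 0.53 (SE 0.173, adjusted p = 0.0494). Its level was already high in papillomas, and its change lay at the edge of the threshold. Nestin (Nes) rose by 1.63 (SE 0.327, adjusted p = 0.0106) and the calponin Cnn3 by 0.77 (SE 0.201, adjusted p = 0.0235). The smooth muscle actin gene Acta2 had a change of 0.01 (SE 0.108, adjusted p = 0.954).

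Receptor tyrosine kinases changed in both directions. Of 18, 7 fell and 6 rose (9 higher and 8 lower without the 6 arrays). Erbb3, a neuregulin receptor, was at 5.82, 9.81 and 10.34 in papillomas and 4.76, 5.67 and 10.25 in spindle carcinomas and fell by 3.06 (SE 0.535, adjusted p = 0.00837), Erbb2 fell by 1.33 and Egfr by 0.61. Fgfr2, a receptor that epithelia use, fell by 2.53 (SE 0.556, adjusted p = 0.014) and Fgfr3 fell by 2.38 (SE 0.344, adjusted p = 0.00643). Fgfr1, the form of mesenchyme, was at 9.25, 10.19 and 11.71 in papillomas and 10.31, 11.77 and 12.01 in spindle carcinomas and rose by 1.35 (SE 0.291, adjusted p = 0.0132). Pdgfra rose by 1.98 (SE 0.632, adjusted p = 0.0471), the receptor Axl by 1.12 (SE 0.253, adjusted p = 0.0152), the collagen receptor Ddr2 by 1.51 and Met by 0.92. Of 7 ligands of the EGF receptor family, 3 fell and 0 rose: Tgfa by 2.14 (SE 0.454, adjusted p = 0.0126), Epgn by 1.98 (SE 0.366, adjusted p = 0.00903) and Nrg1 by 1.12 (SE 0.296, adjusted p = 0.0249). Of the 7, 5 were lower without the 6 arrays. The ligands and receptors of the EGF receptor family thus had no called rise with all arrays.

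Transcripts commonly used to follow MAP kinase signalling mostly rose. Of 15 feedback and Ets genes, 9 rose and 0 fell (median 0.81, 11 higher and 2 lower without the 6 arrays). The Ets factor Etv1 was at 6.95, 7.8 and 10.37 in papillomas and 8.78, 10.55 and 11.12 in spindle carcinomas and rose by 2.37 (SE 0.462, adjusted p = 0.00988), higher in 8 of 9 mice. Spry4, an inhibitor of receptor signalling, was at 6.85, 7.08 and 9.27 in papillomas and 7.65, 9.56 and 10.302 in spindle carcinomas and rose by 1.82 (SE 0.369, adjusted p = 0.0111), and the phosphatase Dusp4 rose by 1.36 (SE 0.347, adjusted p = 0.0223). Etv4, Etv5, Dusp6, Spred1, Spred2 and Spred3 rose by 0.81 to 1.12. Of the 9 measured Ras family genes and regulators, Mras rose by 1.78 (SE 0.349, adjusted p = 0.0101), Rras by 0.8 (SE 0.168, adjusted p = 0.0123), the inhibitors Nf1 and Rasa1 by 0.85 and 0.72, and the exchange factor Rasgrp1 fell by 1.3 (SE 0.231, adjusted p = 0.00859), lower in 9 of 9 mice. The counts were 7 higher and 1 lower without the 6 arrays. Other Ras genes of this list were not analysed here. Of 9 AP-1 and immediate early genes, 1 was called: Junb fell by 0.53 (SE 0.162, adjusted p = 0.0411), a call that centring ended while 1 other was then called higher. Leaving out the 6 arrays gave 1 higher and 2 lower.

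The TGF-beta and BMP group had 11 of 20 genes higher and 1 lower (median 0.53). The ligand Bmp2 was at 7.13, 7.6 and 7.86 in papillomas and 8.04, 8.76 and 10.12 in spindle carcinomas and rose by 1.4 (SE 0.183, adjusted p = 0.00565). Every carcinoma mean lay above every papilloma mean. The ligand Bmp7 went the other way and fell by 2.26 (SE 0.469, adjusted p = 0.0117). The latency proteins that store TGF-beta rose in 4 of 4 cases: Ltbp1 by 0.97, Ltbp2 by 1.28, Ltbp3 by 1.37 and Ltbp4 by 1.12. Tgfb3 rose by 1.07 (SE 0.229, adjusted p = 0.0132), Tgfb1 by 0.58, the receptor Tgfbr1 by 0.46 and Smad3, which carries the signal to the nucleus, by 1.08 (SE 0.187, adjusted p = 0.00833). The direct target Smad7 had a change of 0.46 (SE 0.168, adjusted p = 0.0741), or 0.42 (adjusted p = 0.0472) without the 6 arrays.

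Notch, Wnt and axon guidance genes were mixed. Of 12 Notch genes 6 fell and 0 rose (4 lower and 1 higher with centred arrays, 2 higher and 8 lower without the 6 arrays), with the receptor Notch3 at -1.78, the ligand Jag2 at -1.67 and the target Nrarp at -1.53. Of 19 Wnt genes 5 fell and 2 rose, against 11.2% and 12.6% of all genes. Without the 6 arrays 4 were higher and 5 lower, against 24.2% and 17.9% of all genes. Wnt4, an epidermal ligand, was at 5.47, 9.04 and 10.14 in papillomas and 4.75, 5.28 and 9.63 in spindle carcinomas and fell by 3.02 (SE 0.578, adjusted p = 0.00956), and Wnt3 and Wnt3a fell by 1.68 and 1.02, each in 9 of 9 mice. The target Axin2 had a change of -0.42 (SE 0.163, adjusted p = 0.0857). Of 22 axon guidance genes, 7 rose and 4 fell. Sema3a, a secreted repellent, was at 5.62, 6.77 and 9.76 in papillomas and 6.61, 10.43 and 10.74 in spindle carcinomas and rose by 2.65 (SE 0.717, adjusted p = 0.0268), Ntn1 (netrin) rose by 2.05 (SE 0.63, adjusted p = 0.0412), the receptors Nrp1 and Nrp2 rose by 1.1 and 0.84, and the semaphorin receptor Plxnb1 fell by 1.88 (SE 0.443, adjusted p = 0.0172).

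Of 17 cell cycle genes 7 rose and 1 fell, with a median change of 0.55. The factor E2f1 rose by 1.07 (SE 0.254, adjusted p = 0.0175) and cyclin A2 (Ccna2) by 0.66 (SE 0.179, adjusted p = 0.0277), while cyclin D2 (Ccnd2) fell by 1.07 (SE 0.327, adjusted p = 0.0401) and cyclin D1 (Ccnd1) rose by 0.59 (SE 0.126, adjusted p = 0.0126), with no overlap between its tissues. The proliferation marker Mki67 had a change of 0.4 (SE 0.15, adjusted p = 0.0816). With arrays centred on their medians 12 of the 17 were called higher, so this count depends on the scaling; without the 6 arrays the counts were 12 higher and 2 lower, with Mki67 at 0.45 (adjusted p = 0.039). Among 10 inhibitors and tumour suppressors, Cdkn1a, which stops the cycle in differentiating cells, fell by 0.57 (SE 0.123, adjusted p = 0.013), Cdkn1b and Cdkn2c rose by 0.45 and 0.75 (SE 0.246, adjusted p = 0.0498) and Smad4 by 0.51 (SE 0.0906, adjusted p = 0.00847) (3 higher and 3 lower without the 6 arrays). Of 7 oncofetal genes, Hmga2 alone was called. Of 10 hair follicle stem cell genes 5 rose (7 higher and 1 lower without the 6 arrays), with Lrig1 at 1.31, Cd34 at 0.77, Lgr6 at 0.84, Sox9 at 0.69 and Runx1 at 0.55. Cd34 and Lrig1 are also expressed by dermal cells. Of 17 hypoxia and glycolysis genes, Hk2 fell by 1.22 (SE 0.302, adjusted p = 0.0205), Egln3 by 1.32 (SE 0.358, adjusted p = 0.0272) and P4ha1, which modifies collagen, rose by 0.81 (SE 0.173, adjusted p = 0.013), and the other 14 were not called. These 1 higher and 2 lower of 17 are near the shares over all genes (12.6% and 11.2%), whereas without the 6 arrays the counts were 1 higher and 9 lower.

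Among markers of other cell types, those of macrophages rose, while few of fibroblasts and none of skeletal muscle were called with all arrays. Of 11 macrophage markers, 7 rose and 0 fell (median 1.20, 10 higher and 0 lower without the 6 arrays), and their mean level ranged from 7.41 to 9.88 in papillomas and from 8.13 to 10.47 in spindle carcinomas. The receptor Mertk rose by 1.63 (SE 0.45, adjusted p = 0.0288), Fcgr1 by 1.46 (SE 0.392, adjusted p = 0.0262) and the complement gene C1qc by 1.45 (SE 0.427, adjusted p = 0.0353). Of 11 fibroblast markers Pdgfra alone was called, near the share of all genes called higher (12.6%). Without the 6 arrays 4 were higher, with a median of 0.80 against 0.26. The mean level of the 11 markers was 8.23 to 10.19 in papillomas and 8.73 to 10.49 in spindle carcinomas. Fibroblasts and spindle tumour cells share these transcripts, and the part of fibroblasts or macrophages in the rises of matrix and EMT genes was not tested. Skeletal muscle markers were not called in any of 10 cases (median 0.57), with Myh2 at 1.14 (adjusted p = 0.0578) and Acta1 at 1.09 (adjusted p = 0.26), and 1 of the 10 had an unadjusted p under 0.05. Of the 10, 7 were higher without the 6 arrays.

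Other resident cells were lower or even. Of 6 melanocyte markers 5 fell: Tyrp1 by 2.76 (SE 0.569, adjusted p = 0.0115), Dct by 2.29 (SE 0.491, adjusted p = 0.0131) and Mlana by 1.67 (SE 0.326, adjusted p = 0.00989). S100a8 and S100a9, which both neutrophils and stressed keratinocytes make, fell by 2.32 (SE 0.607, adjusted p = 0.0239) and 2.3 (SE 0.588, adjusted p = 0.0223), and the other 6 neutrophil markers were not called (3 of 8 lower without the 6 arrays). Cd3g and Cd3e, subunits of the T cell receptor complex, fell by 1.09 (SE 0.268, adjusted p = 0.02) and 0.7 (SE 0.205, adjusted p = 0.0346), the 2 called of 9. Cd3e lost its call without the 6 arrays (-0.41, adjusted p = 0.0914), and the counts were 1 higher and 1 lower. Among 6 Langerhans cell markers Cd207 and Epcam fell, Cd207 by 1.11 (SE 0.286, adjusted p = 0.0226). Mfge8 rose by 0.5, and the survival factor Il34 rose by 0.62 (SE 0.142, adjusted p = 0.0157), higher in 9 of 9 mice. Of 7 adipocyte markers Fabp4 alone was called, near the share of all genes called lower (11.2%). It fell by 2.07 (SE 0.364, adjusted p = 0.00847), lower in 9 of 9 mice. None of 9 endothelial, 7 mast cell, 6 B and plasma cell or 7 sebocyte markers was called by limma, and 2, 0, 0 and 1 of them had an unadjusted p under 0.05. Their larger changes included Vwf at -0.64 (adjusted p = 0.0584), Tpsab1 at 0.98 (adjusted p = 0.255), Cd79b at 0.59 (adjusted p = 0.16) and Far2 at -1.91 (adjusted p = 0.0978). Without the 6 arrays 3 mast cell markers were higher, among them Tpsab1 at 1.66, Cd79b was higher (1.02), and of the endothelial markers Vwf was lower (-0.6) and 1 was higher.

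The change was next set between genotypes, 3 HrasKO against 6 WT mice. The targeted gene was not analysed here, so this label was not checked against its level. No gene was called by limma (1533 genes at an unadjusted p under 0.05, lowest adjusted p = 0.182). For Krt8 the change was larger in HrasKO mice by 3.26 (SE 1.03, adjusted p = 0.609), for Krt18 by 2.1 (SE 0.775, adjusted p = 0.609), for Hmga2 by 1.54 (SE 0.568, adjusted p = 0.609) and for Esrp1 it was -3.25 (SE 1.29, adjusted p = 0.609), negative where the fall was larger in HrasKO mice. Mice 1815 and 1949 were both WT. Without the 6 arrays, with 3 HrasKO and 4 WT mice, 0 genes were again called (1043 unadjusted), and the differences were 1.89 (SE 1.3, adjusted p = 0.881) for Krt8, 1.48 (SE 0.673, adjusted p = 0.873) for Krt18, 0.84 (SE 0.366, adjusted p = 0.873) for Hmga2 and -0.97 (SE 0.83, adjusted p = 0.892) for Esrp1. A missed threshold does not show that the genotypes respond alike.

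In 5 WT mice the spindle carcinoma could be set against squamous cell carcinomas (SCC) of the same animal, 7 arrays in all. With all arrays 0 genes were called by limma (1997 at an unadjusted p under 0.05, lowest adjusted p = 0.372). Mouse 1949 decided this result. Its spindle carcinoma read 11.79 for Dsg3, 3.87 for Glp1r and 7.76 for Pdgfra, while its 2 SCC arrays read 11.46 and 10.51, 8.41 and 10.67, and 10.997 and 11.03. In that mouse the array labelled spindle was thus the highest of the 3 for Dsg3 and the lowest for Glp1r and Pdgfra. Without 1949, 2148 genes were called in 4 mice, 1252 higher in spindle carcinoma (6.67% of genes tested) and 896 lower (4.77%). Since these 4 mice remain after a choice made on the same genes, the values below are a description.

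In those 4 mice, Dsg3 was -5.57 (SE 0.923), Krt13 -5.62 (SE 0.936), the small proline-rich gene Sprr2f -5.7 (SE 0.525), the phosphatase Ptprz1 -5.6 (SE 0.499) and Tmem45b -5.58 (SE 0.875) relative to SCC. Higher were Glp1r, the receptor of an incretin hormone, by 5.88 (SE 0.666), the peptidase Mme by 5.28 (SE 0.542), Ntn1 by 4.89 (SE 0.292), Sema3a by 4.86 (SE 0.478) and the proteoglycan Ogn by 4.64 (SE 0.519). Of the called genes of the papilloma comparison, Esrp1 was -4.99 (SE 0.579), Trp63 -4.24 (SE 0.395) and Zeb1 2.77 (SE 0.403). Both comparisons use the same spindle carcinomas. Krt8 was 0.13 (SE 0.792, adjusted p = 0.942), Krt18 -1.03 (SE 0.383, adjusted p = 0.154) and Hmga2 0.6 (SE 0.179, adjusted p = 0.0922), none of them called, and in SCC their means over the 5 mice were 10.32, 10.26 and 10.403.

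**Figure D5:**
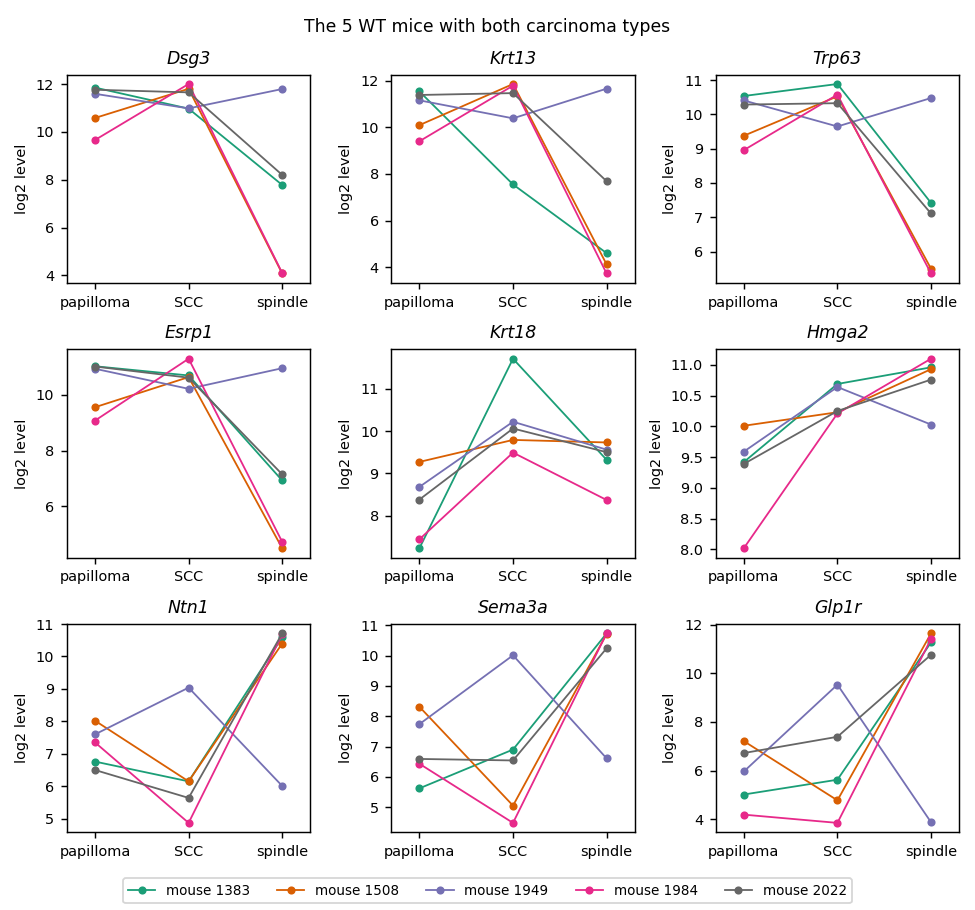
Mean log2 level per mouse in papilloma, SCC and spindle carcinoma of the 5 WT mice that had all 3, for 9 genes, with 1 coloured line per mouse. In 4 mice Dsg3, Krt13, Trp63 and Esrp1 drop between SCC and spindle carcinoma and Ntn1, Sema3a and Glp1r climb, while mouse 1949 runs the opposite way; Krt18 and Hmga2 are above papilloma in SCC already.

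Spindle carcinomas of 1 mouse could be compared in 2 cases. In mouse 1508 the pair correlated at 0.977 over all genes, and 5.79% of genes differed more than 2-fold; in mouse 1664 the correlation was 0.952 and the share 11.8%. Of the 4470 called genes, 7.23% and 13.8% differed more than 2-fold within these pairs. In 1664, Glp1r was at 10.68 and 7.65 and Ntn1 at 7.6 and 10.16, whereas Esrp1 was at 4.49 and 4.91. In 1508, Esrp1 was at 4.28 and 4.72 and Mme at 6.29 and 10.18. Esrp1 was low on all 4 arrays, whereas Glp1r, Ntn1 and Mme differed between tumours of 1 animal.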

How the data were processed

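The 112 arrays of the series are deposited as 1 table of log2 expression values per probe set, made by the authors with RMA (background correction, quantile normalization and summary over probes), per the submitters' processing notes; the version is not given in the sources used here. RMA compresses differences of dim probes, so changes of low genes are understated. The table holds 28204 probe sets: 21141 name 1 gene symbol, 1881 several and 5182 none, by GEO's platform annotation. Those with 1 symbol were used, and of several probe sets of a gene (1367 genes) the one with the highest mean, giving 18772 genes. Probe sets named for a gene read all its transcripts, and near-identical family members (Sprr2, Lce, S100, kallikrein genes) can share signal.

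Mice are the replicates. Values were averaged per mouse and tissue and fitted by lmFit and eBayes of limma 3.58.1, under R 4.3.3 (mouse as a fixed block, two-sided tests, Benjamini-Hochberg adjustment over 18772 genes). The labels pair the tissues by mouse. The genotype comparison tested the per-mouse difference between 3 HrasKO and 6 WT mice, and the SCC comparison used the 5 mice with both carcinomas. All fits were run on simulated data with known changes. The simulated noise was independent and narrower than the spread of many genes named here, so it does not give the power in these data.

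The members and the 49 gene lists (36 pathways and families, 13 cell type marker lists) were chosen with earlier results of these data known. Named were the 12 largest rises and falls with the same direction in every mouse and a level of at least 6. Predicted, microRNA and segment genes were left out of these. Up to 3 called members of each list followed (2 where none was called), and up to 5 genes each way of the other comparisons. The splicing list was named in full, and the keratin, EMT factor and epithelial factor lists in part. MicroRNA genes and further list members such as Cdh1, Cdh2, Pkp2, Fgfr1, Axl, Col1a1 and Mki67 were named after their values were seen. A gene that the rule selects is not reported here. Genes without a probe set of their own were not analysed here. Alternatives covered averaging, the block, probe set choice, a filter on low values, the variance model, normalization, centring, batch, genotype, carcinoma title, the 6 arrays and single mice.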

Additional observations from a re-analysis of the deposited data

Results flagged for a closer look

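By Dixon's test on the gap to the nearest mouse, 12 of 244 genes named had 1 outlying mouse. Its spindle minus papilloma difference lay far from those of the other 8. Chance gives this in about 1 in 20 independent groups. These genes share mice and were in part chosen by their values, so the share seen here cannot be read against that rate. Mouse 1815, whose papillomas read like its carcinoma, was the most frequent. Its difference was near 0 or of opposite sign where the others changed strongly. In that mouse the log2 difference was -0.07 for Akr1d1 against -6.25 to -3.53 in the others, -0.34 for Cdkn1b against 0.24 to 0.83 in the others and 0.81 for Gjb6 against -6.05 to -2.74 in the others. It was 0.08 for Il1f5 against -6.69 to -3.94 in the others, -0.92 for Lce1f against -7.34 to -4.40 in the others, 0.09 for Ltbp3 against 1.15 to 1.91 in the others and -0.78 for Ltbp4 against 0.85 to 2.04 in the others. In mouse 1407 it was 5.46 for Krt18 (others 0.46 to 2.96) and 2.63 for Lgr6 (others -0.14 to 1.14). In mouse 1509 it was 2.47 for Col6a3 (others -0.32 to 1.05). In mouse 1949 it was 5.97 for Krt19 (others -2.51 to 0.05). In mouse 1984 it was 1.28 for Tfap2a (others -0.69 to 0.26).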

How the results depend on the processing

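The number of genes called between spindle carcinoma and papilloma, 4470, lay between 4276 and 6609 with individual arrays, other probe set rules, a filter on low values, another variance model, repeated quantile normalization or centring. Without the replicate block, that is without the pairing by mouse, it was 4867. It moved by over 1.5 times in batch 1 alone (2278), in WT mice alone (0), with carcinomas titled RegCA left out (0) and without the 6 arrays (7912). Leaving out single mice gave 2105 to 5785 calls, and the mice whose loss lowered the count most were 1383 (2105), 1509 (2221), 1664 (2278) and 1407 (2619). These subsets hold fewer mice. Between genotypes, leave-one-out counts ran from 0 to 1 (1 without 1407 or without 1508). Between spindle carcinoma and SCC they ran from 0 to 2148, the latter without 1949, whose spindle carcinoma is the array that stood apart there; that comparison could not be fitted without the RegCA carcinomas. Centring moved the share of higher calls from 53.0% to 68.0%.

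Of the 207 named genes called with all arrays, 203 were called again in the same direction under centring, 203 without the block and 206 without the 6 arrays, where 24 others gained a call and Cd3e lost its own. In batch 1 alone 147 were called again. Genes that had not been called changed direction in some settings. With individual arrays Acta2 was -0.033 and Krt19 -0.086. With RegCA carcinomas left out Krt19 was -0.17, Itga6 0.12, Itgb4 0.016, Mmp13 0.80, Mmp9 0.63 and Sox2 0.59. Without the 6 arrays Krt19 was -0.80 and Mmp13 0.038. Krt7 was 0.19 in WT mice, Mmp9 0.13 in batch 1 and Gsc 0.018 after quantile normalization. Leaving out single mice, the change ran from -0.044 (without 1509) to 0.078 for Acta2, -0.361 to 0.07 (without 2022) for Mmp13, -0.585 to 0.198 (without 1984) for Mmp9, -0.539 to 0.184 (without 1984) for Sox2 and -0.643 (without 1949) to 0.417 for Krt19. The causes were not tested. With 9 mice, 3 of them HrasKO, large differences between genotypes could also miss the threshold, as for Krt8 (3.26, adjusted p = 0.609 by limma). Dim probe sets limit the genes near the lowest levels.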
